A study of Mus musculus with 5 samples.

Results

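A set of 10 genes that mark the endothelial lining of vessels or the forerunners of blood cells was examined for binding sites of the transcription factors Hand1 and Foxf1 in differentiating mouse embryonic stem cells. The genes were 6 endothelial genes (Kdr, Flt1, Tek, Cdh5, Pecam1 and Sox17) and 4 blood genes (Etv2, Tal1, Lmo2 and Runx1). A site was a line of a deposited peak list whose summit, the position of highest signal, lay inside the gene or within 100 kb of either end. By this rule 5 of the 1134 Hand1 peaks and 11 of the 5703 Foxf1 peaks belonged to these loci. The gene table held 21887 protein-coding genes on the named chromosomes, against which the 10 genes were set.

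The 2 lists came from chromatin immunoprecipitation followed by sequencing (ChIP-seq) of E14 cells, a mouse embryonic stem cell line, with an antibody to the HA peptide tag. The Hand1 list, 1 library, came from a Hand1-HA knock-in line at the stage called MES, after 48 h as embryoid bodies and 40 h of re-aggregation with VEGF (5 ng/mL), Activin A (10 ng/mL) and BMP4 (0.3 ng/mL). The Foxf1 list came from the sample labelled replicate 1 of an inducible Foxf1-HA overexpression line at the stage called CP, after a further 32 h as a monolayer with VEGF (5 ng/mL), basic FGF (10 ng/mL) and FGF10 (25 ng/mL). The inducer and its timing are not given in the sources used here. Factor, stage, construct and culture medium thus differ together between the lists and cannot be told apart. The series has 5 samples (1 Hand1-HA, 2 Foxf1-HA and 1 input at each stage), and lists of 2 of them were analysed here. With 1 list per factor no value has a replicate error, and no test between the factors or the gene classes was run. Peak lists do not measure expression, so the labelled cell type could not be checked with marker genes.

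Endothelial and blood cells arise close together from mesoderm, through a precursor that carries Kdr (VEGF receptor 2) and depends on the ETS factor Etv2. Tal1 and Lmo2 then act in one DNA-binding complex that sets the blood programme, and Runx1 is required when blood cells bud from haemogenic endothelium. Hand1, a bHLH factor that binds E-boxes, and Foxf1, a forkhead factor of lateral and extraembryonic mesoderm, are both known to be needed for normal vessel formation in the mouse yolk sac.

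Sequences are shown for 4 annotated transcription starts, to give the context of the sites described next: Kdr, the only coding gene in its window, with a Hand1 site far upstream; Polg2, a neighbour of Pecam1 whose start lies under a Hand1 peak; and Etv2 and the downstream (proximal) start of Runx1, each with a Foxf1 summit inside the gene and close to the start. Each stretch holds the 250 bases before the start, 5′ to 3′ on the gene's strand (minus for each of them), from RefSeq on GRCm38.p6. The Kdr stretch is chr5:75978456-75978705, the Polg2 stretch chr11:106779538-106779787, the Etv2 stretch chr7:30635853-30636102 and the Runx1 stretch chr16:92697330-92697579. Capitals mark the E-box CANNTG in Kdr and Polg2. In Etv2 and Runx1 the forkhead motif TGTTTAC, its close variant TGTTTGC and the shorter core form TAAACA were searched on both strands, and no letters are in capitals because none of them was found in these windows.
Kdr: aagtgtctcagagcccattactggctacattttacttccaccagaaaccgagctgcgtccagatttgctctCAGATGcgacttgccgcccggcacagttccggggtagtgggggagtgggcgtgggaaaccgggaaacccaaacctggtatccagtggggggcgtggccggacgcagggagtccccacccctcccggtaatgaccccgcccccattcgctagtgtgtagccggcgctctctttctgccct
Polg2: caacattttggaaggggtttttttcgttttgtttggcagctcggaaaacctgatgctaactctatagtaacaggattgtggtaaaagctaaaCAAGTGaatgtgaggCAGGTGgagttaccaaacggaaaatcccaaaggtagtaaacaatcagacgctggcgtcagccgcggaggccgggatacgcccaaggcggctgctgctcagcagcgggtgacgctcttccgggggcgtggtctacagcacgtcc
Etv2: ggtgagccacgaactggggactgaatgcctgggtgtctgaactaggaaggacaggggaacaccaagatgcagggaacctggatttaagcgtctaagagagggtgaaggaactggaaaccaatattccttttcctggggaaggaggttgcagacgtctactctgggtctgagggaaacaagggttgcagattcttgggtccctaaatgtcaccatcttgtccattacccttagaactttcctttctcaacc
Runx1: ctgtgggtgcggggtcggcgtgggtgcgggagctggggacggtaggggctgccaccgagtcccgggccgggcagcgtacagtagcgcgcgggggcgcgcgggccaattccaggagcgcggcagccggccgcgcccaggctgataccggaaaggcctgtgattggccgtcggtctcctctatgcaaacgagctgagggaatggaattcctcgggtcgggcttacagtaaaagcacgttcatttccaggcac

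Kdr held 1 E-box in this stretch, CAGATG, which reads CATCTG on the other strand, and Polg2 held 2, one reading CAAGTG and, nearer to the start, one reading CAGGTG. An E-box of the form CANNTG is common: 66.2% of the 32851 promoter stretches of the same length held one, and 14.4% held CATCTG on either strand. At least 1 of the 3 forkhead motifs, which overlap where TGTTTAC is read on the other strand, was in 15.6% of the stretches. The promoter table held 8 starts of 6 of the 10 genes. A CANNTG E-box was found before 3 of the 8 starts, a forkhead motif before 1 (the distal start of Runx1), the GATA motif AGATAA before 1 and the ETS motif CAGGAA before 3, each searched on both strands. AGATAA was in 9.99% of all stretches and CAGGAA in 25.7%. No Hand1 or Foxf1 peak overlapped any of the 8 promoter windows, which run from 250 bases before to 50 bases after the start.

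Hand1 sites lay at 4 of the 10 loci and Foxf1 sites at 6. The Hand1 loci were Kdr, Flt1, Pecam1 and Tal1, and the Foxf1 loci were Cdh5, Pecam1, Etv2, Tal1, Lmo2 and Runx1. Over all protein-coding genes 9.90% had a Hand1 site and 53.3% had a Foxf1 site in the same window. The share of these loci with a Foxf1 site, 60.0%, was thus near that of genes at large. The Hand1 share was 40.0%, but it rests on 4 genes and 5 peaks. Pecam1 and Tal1 had sites in both lists, as did 7.65% of all protein-coding genes, and Tek and Sox17 had none in either, as was so for 44.4%.

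**Figure D1:**
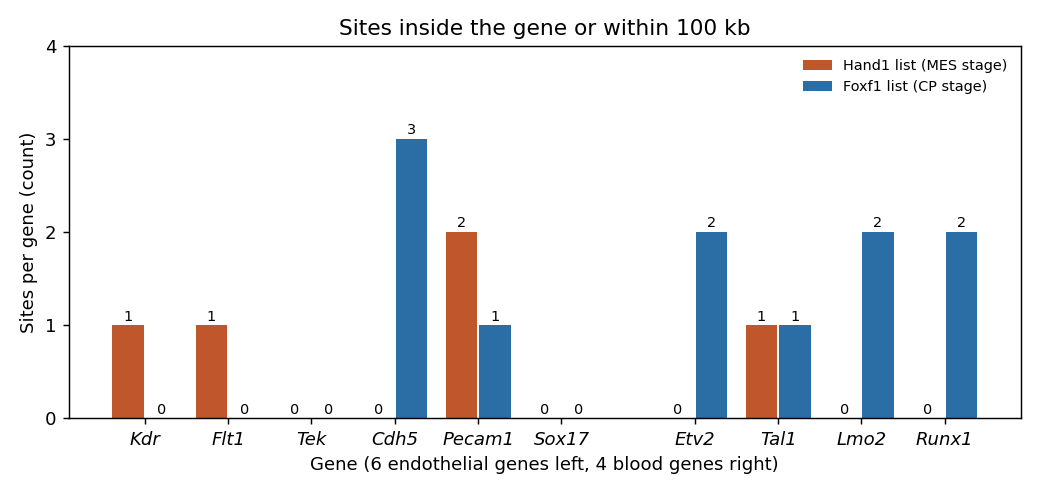
Number of sites (vertical axis, count) inside each gene or within 100 kb, in the Hand1 list (left bar) and the Foxf1 list (right bar), 1 list per factor and so no error bars. All 4 blood genes have 1 or 2 Foxf1 sites, while Kdr, Flt1, Tek and Sox17 have 0.

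Sites of both lists lay at genes of both classes. Foxf1 sites lay at 4 of the 4 blood loci, 7 sites in all, and at 2 of the 6 endothelial loci, 4 sites in all. The split is not sharp, since Etv2, Tal1 and Lmo2, counted as blood genes, also act in the shared precursor of both classes. Of the 7 sites, Etv2, Lmo2 and Runx1 held 2 each and Tal1 held 1. Hand1 sites lay at 3 of the 6 endothelial loci, 4 sites, and at 1 of the 4 blood loci. Per gene this was 1.75 Foxf1 sites at blood loci and 0.667 at endothelial loci, against 1.25 over all protein-coding genes. For Hand1 it was 0.667 at endothelial and 0.25 at blood loci, against 0.280 over all genes. That Hand1 mean over all genes is skewed, since the median was 0 and the largest count 66.

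Window size and gene density differ between the genes, so the counts were also set per length. The blood windows covered 1.07 Mb and the endothelial windows 1.66 Mb, which gave 6.56 and 2.41 Foxf1 sites per Mb, beside 5.02 over the windows of all protein-coding genes. The Hand1 densities were 0.937 per Mb at blood and 2.41 per Mb at endothelial loci, beside 1.13 for all genes, a value with the same skew. The endothelial windows held a median of 2.5 coding genes and the blood windows 4.5, where the median of all genes was 5. Among genes with 1 or 2 coding genes in the window, which include Kdr, Flt1, Sox17 and Runx1, 27.6% had a Foxf1 site. Among genes with 11 or more, which include Etv2, 75.6% did. The part of gene density in the difference between the classes was not tested.

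**Figure D2:**
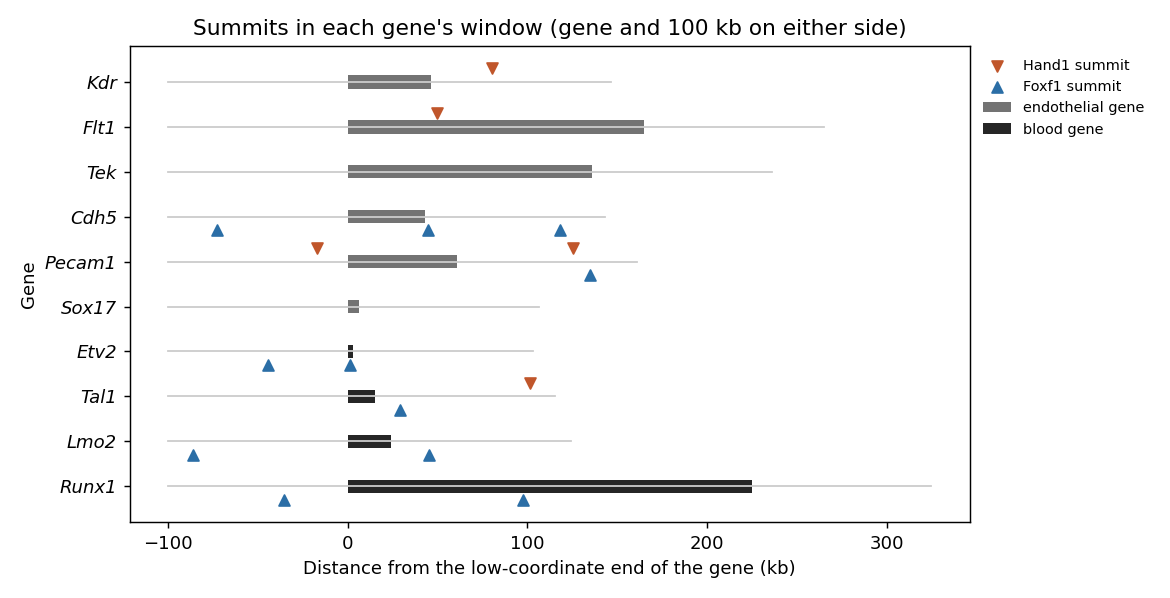
Position of each summit (triangles; Hand1 above, Foxf1 below the line) in kb from the low-coordinate end of each gene, with the gene as a thick bar and its window as a thin line. Summits lie inside Flt1 (Hand1), Etv2 and Runx1 (Foxf1), and the others lie outside the member gene.

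Kdr and Flt1 each had 1 Hand1 site and no Foxf1 site, a pair of counts found for 1.93% of all coding genes. Other VEGF receptor genes, of the wider list counted at the end, did not share it. Flt4 (VEGF receptor 3) had 1 Foxf1 site, inside the gene (fold 6.89), and no Hand1 site. The co-receptor genes Nrp1 and Nrp2 had 2 and 1 Foxf1 sites and no Hand1 site. To lack a Hand1 site is the common state: over all coding genes 9.90% had one, and 53.3% had a Foxf1 site. Near Kdr the Hand1 peak at chr5:76012932-76013239 had a fold enrichment of 7.04, the authors' ratio of the summit's signal to the background, with 15 fragments inferred at the summit. It lay 34.7 kb upstream of the annotated Kdr start, inside the lncRNA gene Gm32727, and Kdr was the nearest coding gene. No Foxf1 summit lay within 100 kb of Kdr, and the nearest was 161 kb away (fold 7.64).

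Flt1 encodes VEGF receptor 1, which binds VEGF tightly and limits signalling through Kdr. Its Hand1 peak, chr5:147611435-147611604, lay inside the gene, 114 kb downstream of the start shown in the promoter table, and was 170 bp wide. A Hand1 summit inside the gene was found for 1.42% of all coding genes. The fold was 2.15, at percentile 1.85 of the list. The inferred control level, which is the background expected at the summit, was 48.8 fragments there, 39.0 times the lowest in the list, against 106 fragments in the precipitated library. Levels from 5 times the lowest upwards are called high, and 11.7% of Hand1 peaks had one. Without peaks of high control level 3 of the 10 loci kept a Hand1 site, and 2 of the 6 endothelial ones. The nearest Foxf1 summit to Flt1 was 231 kb away.

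Tek encodes the angiopoietin receptor Tie2, and Sox17 a transcription factor of arterial and haemogenic endothelium that also marks endoderm. Neither had a site. The nearest Hand1 summit was 1892 kb from Tek and 2704 kb from Sox17, and the nearest Foxf1 summit 607 kb and 799 kb. These are long distances in the Foxf1 list: 83.5% of all coding genes had a Foxf1 summit at least as near as Tek did, and 86.9% as near as Sox17 did.

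The junction genes Cdh5 and Pecam1 carried the Foxf1 sites of the endothelial class. Cdh5 encodes VE-cadherin, the adhesion molecule of endothelial junctions, and had 3 Foxf1 sites, a number reached by 17.6% of coding genes. The nearest, chr8:104146065-104146931, lay 1.99 kb beyond the high-coordinate end of the gene with a fold of 6.24 and 25 fragments. The next, chr8:104028641-104028986, lay 72.8 kb from the other end, inside the lncRNA gene Gm32728, with a fold of 5.83 and 46 fragments. Its control level, 7.06, was 4.51 times the lowest in the list, just under the limit for a high level. The third, chr8:104219773-104220249 (fold 6.35, 27 fragments), lay 0.893 kb from Bean1, which is nearer to it than Cdh5 is. Their folds were at percentiles 9.10 to 18.2 of the list. On chromosome 8, 75.6% of coding genes had a Foxf1 site within 100 kb, more than the 53.3% of all genes; the part of this chromosome-wide level in the Cdh5 count was not tested. Cdh5 had the longest distance to a Hand1 summit of the 10 genes, 6918 kb.

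Pecam1 encodes CD31, an adhesion molecule of endothelial and some blood cells, and had 2 Hand1 sites, a number reached by 2.40% of coding genes, and 1 Foxf1 site. The Hand1 peak at chr11:106636947-106637162 lay 17.2 kb from the gene, with Pecam1 as the nearest coding gene. Its fold was 5.60 with 13 fragments, and its −log10 q-value of 5.01 was the lowest in the whole list. The other Hand1 peak, chr11:106779203-106779636 (fold 5.47, 14 fragments), lay 64.1 kb from Pecam1 with its summit inside Polg2, 0.126 kb downstream of the Polg2 start. It covered the last 99 of the 250 bases shown for Polg2, a gene for a subunit of the mitochondrial DNA polymerase, and neither of the 2 E-boxes in capitals lay under it. The Foxf1 peak, chr11:106788317-106789509 (fold 7.85, 48 fragments), was 1193 bp wide and lay 73.6 kb from Pecam1, over the starts of Ddx5, an RNA helicase gene, and Cep95. The Foxf1 summit and the nearer Hand1 summit were 9.45 kb apart and the peaks did not overlap. The Pecam1 sites at 64.1 kb and 73.6 kb were thus at the starts of neighbouring genes.

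Every blood gene had a Foxf1 site, and the nearest one lay inside the gene at Etv2 and Runx1, 14.0 kb from Tal1 and 21.0 kb from Lmo2. The median distance from the 4 genes to their nearest Foxf1 summit was 7.00 kb, against 196 kb for the endothelial genes and 82.7 kb for all coding genes. A Foxf1 summit inside the gene was found for 11.0% of all coding genes.

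Etv2 is a master regulator of the endothelial and blood precursor, and had 2 Foxf1 sites, a number reached by 31.0% of coding genes. The peak inside it, chr7:30634532-30635008, had its summit 1.03 kb downstream of the start whose upstream bases are shown above. Its fold was 5.90 with 25 fragments, at percentile 9.98 of the list, and its −log10 q-value of 10.6 was close to the lowest in the list, 10.0. The other, chr7:30589353-30589771, was the strongest Foxf1 site of the 10 loci, with a fold of 11.3, 46 fragments and percentile 89.2. It lay 44.0 kb from Etv2 and 0.104 kb from the end of Zbtb32, a zinc-finger gene of lymphoid cells, inside the lncRNA gene Gm32082. The Etv2 window held 19 coding genes, the most of the 10.

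Runx1 had 2 Foxf1 sites. The peak inside the gene, chr16:92698623-92699015 (fold 5.92, 28 fragments), had its summit 1.48 kb upstream of the proximal start shown above and 127 kb downstream of the distal start. The second, chr16:92565726-92566705 (fold 7.86, 26 fragments), lay 35.6 kb beyond the low-coordinate end of the gene and 24.7 kb from Clic6. On chromosome 16, 42.1% of coding genes had a Foxf1 site, and the window of Runx1 held 2 coding genes. The nearest Hand1 summit was 963 kb away.

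Tal1 encodes a bHLH factor and Lmo2 the LIM protein that bridges it to GATA factors. The Foxf1 peak near Tal1, chr4:115085609-115085998 (fold 6.45, 29 fragments), lay 14.0 kb beyond the gene and 2.95 kb from the start of Pdzk1ip1, which is nearer. Tal1 also had the only Hand1 site of the blood class, chr4:115157265-115157899 (fold 6.21, 13 fragments), 85.9 kb beyond the gene and 23.5 kb from Cyp4x1. The Hand1 and Foxf1 summits were 71.9 kb apart. Near Lmo2 the Foxf1 peak at chr2:104002716-104003356 (fold 6.80, 24 fragments) lay 21.0 kb from the gene, inside the coding gene 4931422A03Rik. A second Foxf1 peak, chr2:103871815-103872291 (fold 7.73, 19 fragments), lay 85.8 kb away on the other side, in a stretch where the nearest coding gene, Caprin1, was 74.4 kb off.

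**Figure D3:**
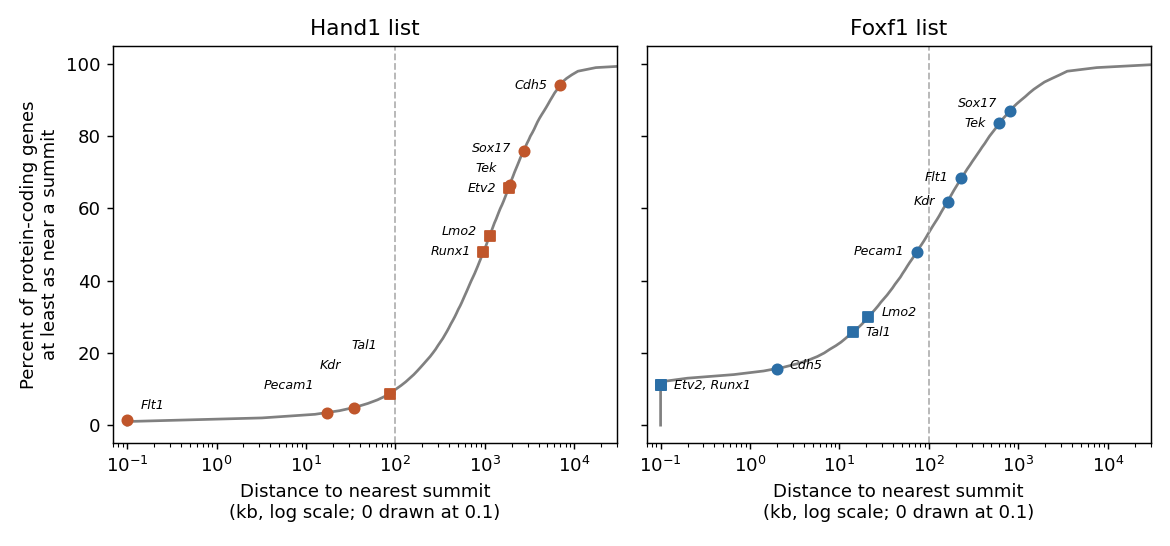
Distance from each of the 10 genes to the nearest summit (horizontal axis, kb, log scale, with 0 drawn at 0.1) against the percent of protein-coding genes at least as near; circles are endothelial and squares blood genes, the grey line all coding genes and the dashed line 100 kb. In the Foxf1 list the blood genes sit between 11.0% and 29.9%, and among endothelial genes only Cdh5 (15.6%) lies as low.

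The order of the genes by distance to a Foxf1 summit was Etv2 and Runx1 (inside), Cdh5 (1.99 kb), Tal1 (14.0 kb), Lmo2 (21.0 kb), Pecam1 (73.6 kb), Kdr (161 kb), Flt1 (231 kb), Tek (607 kb) and Sox17 (799 kb). In the Hand1 list it was Flt1 (inside), Pecam1 (17.2 kb), Kdr (34.0 kb) and Tal1 (85.9 kb), and the other 6 genes were 963 kb to 6918 kb away. The Hand1 list is sparse, and its median distance over all coding genes was 1040 kb. Just beyond the 100 kb limit, between 100 kb and 200 kb, lay 1 further Hand1 peak (153 kb from Pecam1, fold 5.93) and 5 further Foxf1 peaks (near Pecam1 at 141 kb, Tal1 at 147 kb, Kdr at 161 kb and Cdh5 at 196 kb and 200 kb). The sites farthest out but inside it were those at 85.9 kb (Hand1, Tal1) and 85.8 kb (Foxf1, Lmo2).

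The Hand1 sites at these loci were weak within their list, while the Foxf1 sites were spread over theirs. All 5 Hand1 sites had a fold below the list's median of 7.92, from 2.15 to 7.04. Of the 11 Foxf1 sites, 7 were below the median of 7.62, which by definition splits the list evenly, and the range was 5.83 to 11.3. Their folds ran from percentile 9.10 to 89.2 of the list, and their q-values from percentile 7.98 to 88.4. The Hand1 sites had −log10 q-values of 5.01 to 8.11, below the 10.0 that is the lowest value in the Foxf1 list, so at that limit none of the 10 loci had a Hand1 site. Summits held 13 to 15 inferred fragments at the 4 Hand1 sites other than Flt1, where the list's minimum was 13 and its median 26. At the Foxf1 sites they held 19 to 48, with a list minimum of 18 and median of 29. At a gene without a listed site, binding was not detectable at these limits, which does not show that it was absent.

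**Figure D4:**
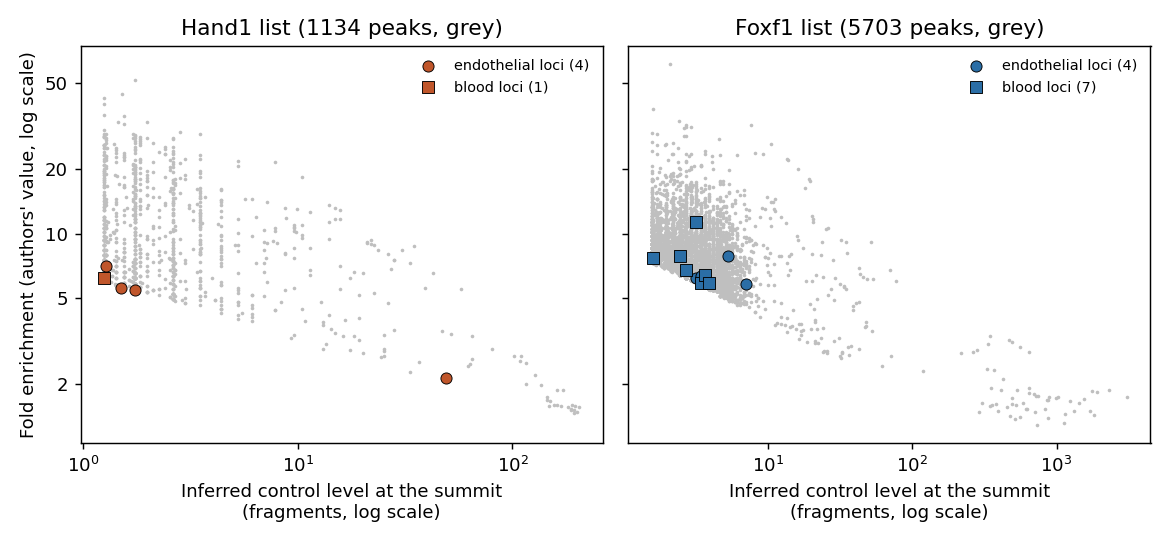
Authors' fold enrichment (vertical axis, log scale) against the inferred control level at the summit (horizontal axis, fragments, log scale) for all peaks of each list (grey) and for the sites at endothelial (circles) and blood (squares) loci. The Flt1 site stands apart in the Hand1 list at a control level of 48.8. The other marked Hand1 sites lie near the lower edge of the grey points, while the marked Foxf1 sites range from a fold of 5.83 to 11.3.

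A site need not belong to the member gene. The member was the nearest coding gene for 3 of the 5 Hand1 sites (Kdr, Flt1 and the site 17.2 kb from Pecam1). It was so for 4 of the 11 Foxf1 sites, namely 2 at Cdh5 and those inside Etv2 and Runx1. Counting only such sites, 1 endothelial and 2 blood loci kept a Foxf1 site. A peak is often counted at several genes: over all coding genes, 1122 Hand1 peaks on named chromosomes gave 6132 gene counts. For Foxf1, 5663 peaks gave 27266. The share of those counts where the gene is the nearest one was not determined. The 3 of 5 and 4 of 11 thus have no background, and whether they are particular to the 10 loci was not tested. Within 1 kb of an end of a coding gene lay 1 of the 5 Hand1 and 3 of the 11 Foxf1 sites, beside 19.3% and 25.4% of all peaks of the lists on named chromosomes. No Hand1 peak at the 10 loci shared a base with a Foxf1 peak.

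A wider list of 58 vascular and blood genes was counted in the same way, and all 58 matched the gene table. Of its 36 endothelial genes 29 had a Foxf1 site (80.6%) and 6 a Hand1 site (16.7%), and of its 22 blood genes 15 (68.2%) and 2 (9.09%). The shares over all protein-coding genes were 53.3% for Foxf1 and 9.90% for Hand1, so the Hand1 share of the wider blood list was at the level of genes at large. The order of the classes seen for the 10 genes in the Foxf1 list, blood above endothelial by share of genes with a site, was thus the reverse in the wider list. Over all coding genes the Foxf1 share rose with gene density, from 27.6% to 75.6%. The part of density in the shares of the wider list was not tested. By the median number of Foxf1 sites per gene the order was not reversed. It was 2 for blood and 0 for endothelial genes among the 10, and 2 and 1.5 in the wider list. The median of all coding genes was 1. Some of these genes are neighbours and share sites, so the 74 sites counted at the endothelial genes were 69 distinct peaks.

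**Figure D5:**
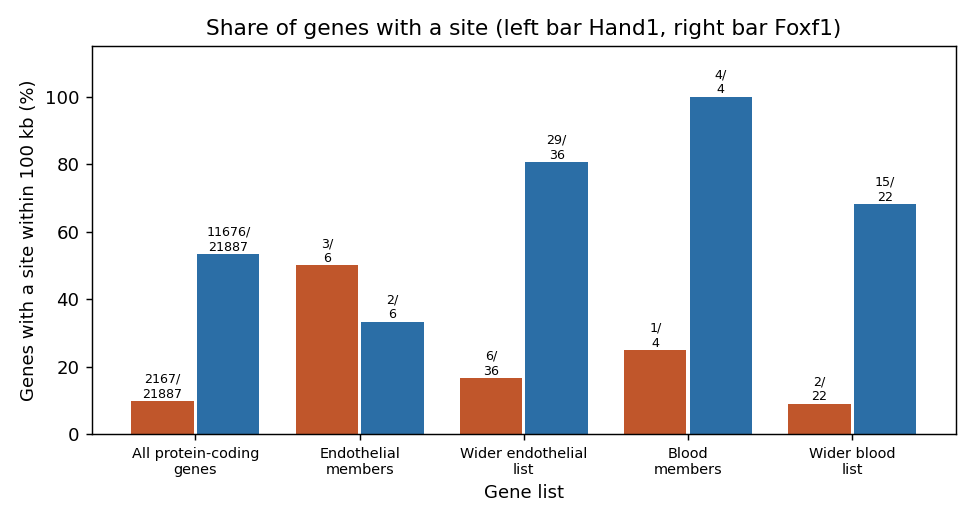
Percent of genes with at least 1 site inside or within 100 kb (vertical axis) in the Hand1 list (left bar) and the Foxf1 list (right bar), with the number of genes above each bar. The Foxf1 bar is higher for blood than for endothelial members (4 of 4 against 2 of 6) and lower for the wider blood list than for the wider endothelial list (15 of 22 against 29 of 36).

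Sites of both lists lay at 7 of the 58 genes of the wider list (12.1%), beside 7.65% of all protein-coding genes, and these 7 are described by the rule for naming genes. Vegfa, the ligand of Kdr and Flt1, had 3 Foxf1 sites, the nearest inside the gene (fold 6.02), and 1 Hand1 site 48.9 kb away (fold 6.16). Dll4, the Notch ligand of arterial cells, had 5 Foxf1 sites with folds up to 14.8 and 1 Hand1 site 20.6 kb away (fold 6.22). Egfl7, a secreted endothelial factor, had 5 Foxf1 sites with folds up to 15.8 and 2 Hand1 sites. At Ephb4, the ephrin receptor of veins, the nearest peaks of the lists overlapped, at chr5:137334005-137334715 for Hand1 (fold 8.22) and chr5:137333738-137334356 for Foxf1 (fold 8.17), 15.7 kb and 16.0 kb from the gene. This was the only one of the 7 genes where they did. Aplnr, the apelin receptor, had 1 site in each list, at 98.4 kb (Hand1) and 12.3 kb (Foxf1). Among blood genes Gfi1b, a repressor of erythroid and megakaryocytic cells, had 6 Foxf1 sites and 1 Hand1 site, and Mecom, a factor of blood stem cells, had a Foxf1 site inside it (fold 13.7) and a Hand1 site at 91.6 kb (fold 14.9).

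The most Foxf1 sites in the wider list were at Klf1, an erythroid factor (12), Nfe2, a factor of erythroid and megakaryocytic cells (11), Plvap, a protein of endothelial diaphragms (10), and Hba-x, the embryonic alpha-like globin gene (8). Eng, Acvrl1 and Gfi1b followed with 6 each. Cdh5, the member with the most, had 3. Klf1 and Plvap lie on chromosome 8, as Cdh5 does, where 75.6% of coding genes had a Foxf1 site. The other genes of the wider list on that chromosome had from 0 (Angpt2) to 5 (Cbfa2t3). Nfe2 lies on chromosome 15 and Hba-x on chromosome 11. The part of the chromosome in these counts was not tested.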

How the data were processed

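Hand1 and Foxf1 ChIP-seq peak lists of E14 cells were analysed as deposited. Per the submitters' processing notes the tools were Trim Galore 0.6.6, Bowtie2 2.3.4.3, SAMtools 1.9, deepTools 3.5.0 and MACS2 2.2.7.1, with the build mm10; parameters, the control used, and pooling of replicates are not given in the sources used here. The authors deposited for each peak a score (10 times the −log10 p-value, decimals dropped), the fold enrichment (a ratio), −log10 values of p and q, and the summit. Genes came from a RefSeq table of GRCm38.p6, the same assembly as mm10; coordinates are 1-based.

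Depth is not in the lists. The whole number of fragments k and the control level λ at each summit were solved from the deposited fold, taken as k + 1 over λ + 1, and p-value, taken as the upper tail of a Poisson distribution beyond k. The solution matched the deposited −log10 p-value within 0.05 for 100% of Hand1 and 99.8% of Foxf1 peaks, and the code was tested on simulated data. Counts were made with python 3.11.15, pandas 2.3.3, numpy 2.4.6 and scipy 1.17.1. Overlap meant at least 1 shared bp. The genes, classes and wider list were chosen with earlier results of these data known, so no list test was made. All 10 genes are described; of the wider list, genes with sites in both lists and those with the most Foxf1 sites are named.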

Additional observations from a re-analysis of the deposited data

How the results depend on the processing

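Each of 6 results was recomputed under 9 alternatives, and of these 54 values 34 stayed within 1.5 times and none changed sign. Within 50 kb there were 3 Hand1 and 7 Foxf1 sites, against 5 and 11. Within 10 kb 1 locus had a Hand1 site (1 site) and 3 had a Foxf1 site (3 sites). Of all coding genes, between 2% and 3% lay within 10 kb of a Hand1 summit, and between 22% and 23% of a Foxf1 summit. Endothelial minus blood sites per gene within 10 kb were 0.167 for Hand1 and -0.333 for Foxf1, against 0.417 and -1.08. Within 200 kb the Foxf1 difference was -0.667. At the Foxf1 list's limit (−log10 q of 10) applied to both, 0 loci had a Hand1 site (0 sites, difference 0). With the Foxf1 list shortened to the 1134 peaks of highest fold, 1 locus, Etv2, kept a Foxf1 site (1 site, difference -0.25). Counting only sites nearest to the member gave 3 Hand1 sites, and 4 Foxf1 sites at 3 loci with a difference of -0.167. Without peaks of high control level the Hand1 difference was 0.25. Shares of all coding genes under the q-value, list-length, nearest-gene and control-level rules are not given here, so the counts under those rules lack a background. Where a value shifted, fewer or more sites were counted than under the main rule. Merging lines of one region and counting any base of a peak changed no value. No paired analysis was possible because each factor has a lone list; leaving out replicates was not run for that reason.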

Other observations

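The deposited peak names are numbered in genomic order, up to 291684 for Hand1 and 156892 for Foxf1, so gaps in the numbers count peaks that were numbered but not listed. Between the first and last Foxf1 site of a locus, 37 unlisted peaks fell within 191 kb at Cdh5, 14 within 131 kb at Lmo2, 12 within 133 kb at Runx1 and 8 within 45.2 kb at Etv2. Between the 2 Hand1 sites of Pecam1 there were 21 within 142 kb. Around Tek, which had no Foxf1 site, 164 unlisted Foxf1 peaks lay between the listed peaks on either side, 6172 kb apart, and around Sox17 80 lay within 2105 kb. The strength of these unlisted peaks is not known from the names.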
